A study of Mus musculus with 8 samples.

Results

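The Hedgehog pathway genes examined here were 9 genes chosen by name: the ligands Shh and Ihh, the receptor Ptch1, the signal transducer Smo, the antagonists Hhip and Sufu, and the transcription factors Gli1, Gli2 and Gli3. All 9 were found among the 20926 genes of the table. The rule names the genes and applies no threshold to their values, and the choice was made with earlier results of these data known. Expression was measured by RNA-seq in molars of mice at postnatal day 3, in 4 control libraries (Ezh2fl/fl) and 4 libraries from Osr2-Cre;Ezh2fl/fl mice (labelled Osr2KI-Cre;Ezh2fl/fl, titled Osr2-Ezh2cko in the plots). Both groups carry floxed Ezh2 alleles, and the controls carry no Cre. Cre was knocked in at the Osr2 locus and is active in mesenchymal tissues of tooth and jaw. Floxed Ezh2 alleles in the tooth's epithelial cells are therefore left unrecombined in both genotypes. The labels give the strain as C57BL/6, and the study's methods describe a mixed background and mice of either sex. The epithelium was taken off before RNA isolation and the mesenchyme was kept. How many animals made up a library is not given in the sources used here, so the p-values measure the spread between these libraries, whatever its source.

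Hedgehog ligands are secreted proteins. They bind Ptch1, which then releases Smo from inhibition, and Smo acts through the primary cilium to turn the Gli proteins toward activation of their targets. Gli1 and Ptch1 and Hhip are themselves transcribed in response to the signal and serve in many tissues as its readout, with Ptch1 and Hhip holding the signal back. In the tooth, Shh is made by the dental epithelium and the response lies in both the epithelium and the neighbouring mesenchyme, and Gli1 marks stem cells of the dental mesenchyme. The Polycomb mark H3K27me3, written by Ezh2 with its partners Eed and Suz12, is laid mostly over CpG-rich promoters of repressed genes. The comparison of the genotypes asks whether transcripts of this pathway differ between molar mesenchyme with and without Cre recombination of Ezh2.

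The promoters of 3 members are printed to show what such CpG-rich sequence looks like in genes whose values are compared. Hhip and Gli3 had all 4 Osr2-Cre;Ezh2fl/fl values above all 4 control values, and Ptch1, the receptor, had overlapping groups. RefSeq promoters of 300 bases (250 before the transcription start and 50 after it, GRCm38.p6) were matched for 7 of the 9 members, that is, Ihh, Ptch1, Smo, Gli2, Gli3, Hhip and Sufu. Each is given 5′ to 3′ on the strand of the gene, with CG dinucleotides in capitals, for Hhip at chr8:80057959-80058258 on the minus strand, for Gli3 at chr13:15463473-15463772 on the plus strand and for Ptch1 at chr13:63565686-63565985 on the minus strand. The windows of Ptch1 and Gli3 lie inside the annotated genes (chr13:63508328-63573598 and chr13:15463235-15730026). They therefore belong to starts downstream of the outermost annotated one.
Hhip: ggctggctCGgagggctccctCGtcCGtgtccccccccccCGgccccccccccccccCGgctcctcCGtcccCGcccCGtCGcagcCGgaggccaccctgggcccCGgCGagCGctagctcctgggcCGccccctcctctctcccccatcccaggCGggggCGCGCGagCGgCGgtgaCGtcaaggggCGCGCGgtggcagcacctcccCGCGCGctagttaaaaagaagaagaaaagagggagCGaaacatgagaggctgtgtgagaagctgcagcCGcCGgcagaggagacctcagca
Gli3: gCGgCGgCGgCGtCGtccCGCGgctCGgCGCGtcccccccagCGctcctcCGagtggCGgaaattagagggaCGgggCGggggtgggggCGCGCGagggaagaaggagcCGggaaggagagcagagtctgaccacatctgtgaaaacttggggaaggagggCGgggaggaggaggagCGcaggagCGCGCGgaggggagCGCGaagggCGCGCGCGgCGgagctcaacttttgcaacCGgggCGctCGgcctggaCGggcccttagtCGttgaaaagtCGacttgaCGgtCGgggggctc
Ptch1: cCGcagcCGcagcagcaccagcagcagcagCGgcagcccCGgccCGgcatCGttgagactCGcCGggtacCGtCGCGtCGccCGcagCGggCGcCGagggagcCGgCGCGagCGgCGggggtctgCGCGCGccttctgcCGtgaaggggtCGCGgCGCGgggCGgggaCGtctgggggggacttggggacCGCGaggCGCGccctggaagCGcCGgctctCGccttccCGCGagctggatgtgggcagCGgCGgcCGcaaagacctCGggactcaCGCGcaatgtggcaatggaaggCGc
The number of CG dinucleotides was 30 in the promoter of Hhip, 39 in that of Gli3 and 47 in that of Ptch1, where the median of all 32851 promoters was 7. Only 1.44% of all promoters held as many as that of Ptch1, 4.45% as many as that of Gli3 and 11.7% as many as that of Hhip. The counts of the other members were 30 for Ihh, 28 for Gli2, 17 for Smo and 12 for Sufu, so every member with a promoter lay above the median. As many were held by 11.7% of all promoters for Ihh, 14.2% for Gli2, 31.4% for Smo and 39.6% for Sufu. The median is that of all promoters, whether or not their genes were tested here. The Gli binding sequence GACCACCCA (TGGGTGGTC on the other strand) was searched on both strands and matched in 0 of the 7 promoters, beside 83 of 32851 promoters (0.253%). These letters are therefore rare in windows of this length in general. Histone methylation was not measured in these libraries.

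The deposited values are scaled so that the 75th percentile of every library lies at about 38.46, and they carry no factor for gene length, so they compare 1 gene between libraries and not 1 gene with another. Each library held an estimated 48.3 to 68.8 M reads, and an estimated 1 read was worth a value of 0.0129 to 0.0190. Ezh2, the targeted gene, had values of 38.3 to 55.0 in the control and 23.2 to 36.0 in the Osr2-Cre;Ezh2fl/fl libraries (log2 fold change -0.46, limma adjusted p = 0.235). This is a value of the whole gene and does not read the floxed part alone, and the libraries still held epithelium, in which this Cre is not active. The part of either in the level of Ezh2 was not tested. When Amelx, Ambn and Enam, the main enamel matrix transcripts, were averaged into a covariate, the log2 fold change of Ezh2 was -0.64 (limma adjusted p = 0.0274), and with the average of an epithelial marker list in its place (picked with the data already seen) it was -0.68 (adjusted p = 0.0581). It was -0.43 with only the 5 libraries of lower Amelx level (adjusted p = 0.658) and -0.19 with array weights (adjusted p = 0.135). All 17 dental mesenchyme markers listed, Msx1, Pax9 and Barx1 among them, passed the filter on low values, and their summed value was 11912 to 14047 in control and 10162 to 11557 in Osr2-Cre;Ezh2fl/fl libraries. The largest terms of this sum were Col1a1, Dspp and Vim. Their means were 7654, 2138 and 1485 in control and 6649, 1113 and 1254 in Osr2-Cre;Ezh2fl/fl libraries. Of the 17 markers, 8 had a positive and 9 a negative log2 fold change, so the sum does not speak for the list. Dental epithelium was still present in every library: the summed value of its 20 markers was 4425 to 35568 in control and 4045 to 15561 in Osr2-Cre;Ezh2fl/fl libraries, and Amtn was the only marker with a mean value under 1. Control libraries 3 and 4 and Osr2-Cre;Ezh2fl/fl library 3 stood apart, with Amelx at 7818 to 16250.4 in these and at 316 to 1377 in the other 5. Both Xist and Ddx3y, the transcripts of the inactive X chromosome and of a Y-linked gene, were above a value of 10 in 4 libraries (control 1, 3 and 4 and Osr2-Cre;Ezh2fl/fl 4), so that transcripts of both kinds were present in each of these.

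When each value was divided by the length of the gene's merged exons, the members spanned a wide range of levels. Ptch1 was at the top with a mean of 63.7 per kb (49.2 to 80.3 over the 8 libraries), the 97.3th percentile of the 20055 genes with a length. Shh followed with 59.0 (32.1 to 84.4), Smo with 37.3 (35.0 to 41.2) and Gli1 with 31.0 (25.9 to 38.4). The next were Gli3 with 11.7 per kb (10.3 to 15.2) and Hhip with 9.49 (7.33 to 12.9), and then Sufu with 5.27 (4.46 to 5.97) and Gli2 with 4.33 (3.42 to 4.90). Ihh was at the bottom with 0.0486 (0.0264 to 0.0684), the 3.89th percentile. The ranges of Ptch1 and Shh overlapped, as did those of Shh and Smo, Smo and Gli1, Gli3 and Hhip, and Sufu and Gli2. Those of Gli1 and Gli3, of Hhip and Sufu, and of Gli2 and Ihh did not. Gli1 was thus the most abundant Gli transcript per kb and Gli2 the least, in every library.

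Of the 9 members, 8 passed the filter (values of 1 or more in 4 or more of the 8 libraries) and Ihh did not. At an adjusted p under 0.05, limma called 0 of the 8, where it called 2.07% of all 14854 genes tested. At an unadjusted p under 0.05, a threshold the study's methods also give without naming an adjustment, 4 of the 8 passed, where 13.1% of all genes did. Of these, Hhip, Gli1 and Gli3 had higher values in Osr2-Cre;Ezh2fl/fl molars (8.27% of all genes passed in this direction), and Shh had lower values (4.87%). The same 3 genes had all 4 Osr2-Cre;Ezh2fl/fl values above all 4 control values, where 5.76% of all genes tested did, and no member had all 4 below (2.77%). The median log2 fold change of the 8 members was 0.18 and that of all genes tested was 0.01. Fold changes are differences of the mean log2(value + 1), Osr2-Cre;Ezh2fl/fl minus control.

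**Figure D1:**
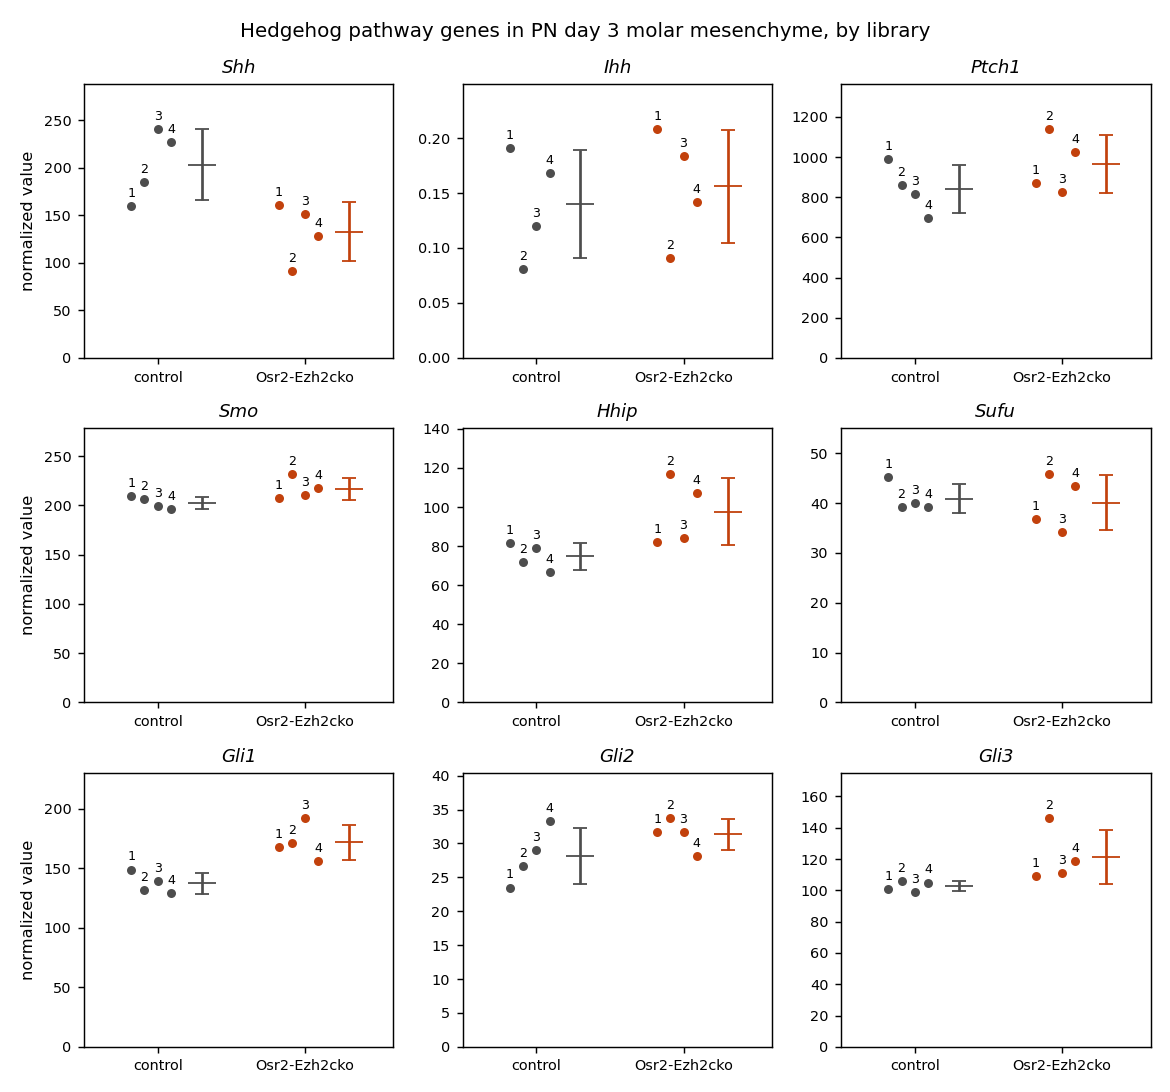
Normalized value (vertical axes, each from 0, not scaled for gene length) of the 9 Hedgehog pathway genes in each library, with replicate numbers, and the group mean ± SD (n = 4) beside the points. The Osr2-Cre;Ezh2fl/fl points (titled Osr2-Ezh2cko) lie above every control point for Hhip, Gli1 and Gli3, those of Shh lie lower apart from 161 in library 1, and Ihh stays at or under 0.208.

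Shh, the ligand that the dental epithelium makes, had values of 160.0, 185, 240.4 and 227 in controls 1 to 4 and 161, 91.3, 151 and 128 in Osr2-Cre;Ezh2fl/fl libraries 1 to 4. The control libraries 3 and 4 were the highest, 3 of the Osr2-Cre;Ezh2fl/fl libraries were below the lowest control, and library 1 was just above it. The means were 203 ± 37.4 and 133 ± 31.1 (SD, n = 4 each), a ratio of 0.654. Its log2 fold change was -0.62 (SE 0.19, 95% interval -1.04 to -0.20, unadjusted p = 0.0085 and adjusted p = 0.157 from limma), and a two-sided exact permutation test gave p = 0.0571. The interval excluded 0 before adjustment, and the gene did not pass after it.

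The epithelial markers were on the same side as Shh. All 19 that passed the filter had a negative log2 fold change, with a median of -0.48, and 8 had an unadjusted p under 0.05, where 4.87% of all genes did in this direction. Of these, Sp6, a transcription factor of the dental epithelium, and Dsp, a desmosomal protein, were lower at adjusted p-values of 0.035 and 0.0282 (limma). The mean log2(value + 1) of the 19 markers was 6.71, 7.34, 8.18 and 8.48 in controls 1 to 4 and 6.94, 6.40, 7.59 and 6.58 in Osr2-Cre;Ezh2fl/fl libraries 1 to 4, so that the groups overlapped. This mean ran closely with that of Amelx, Ambn and Enam alone (Pearson r 0.98), so it follows enamel transcripts and may not measure the amount of epithelium. In Osr2-Cre;Ezh2fl/fl library 3 it was 7.59, yet Epcam (66.1) and Dsp (270.5) were at their lowest of the 8 libraries. Over the 8 libraries, which share tissue and scaling, Shh and the mean of the 19 markers had a Pearson r of 0.86 (Spearman rho 0.83, r 0.83 without the 2 libraries farthest from the median of Shh), given as a description. With this mean as a covariate, an alternative chosen after the data were seen, the log2 fold change of Shh was -0.32 (unadjusted p = 0.0551, adjusted p = 0.36). With the enamel matrix transcripts Amelx, Ambn and Enam as the covariate it was -0.43 (unadjusted p = 0.022, adjusted p = 0.246). With only the 5 libraries of lower Amelx level (controls 1 and 2 and Osr2-Cre;Ezh2fl/fl 1, 2 and 4), chosen after the data were seen as well, it was -0.47 (unadjusted p = 0.0854, adjusted p = 0.835). In RNA of a dissected piece, less epithelium left on it, fewer cells that make Shh and less Shh RNA per cell cannot be told apart.

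Within a library, Shh divided by a single epithelial marker gave overlapping groups for all 5 markers used (Krt14, Cdh1, Sp6, Epcam and Dsp). These 5 were picked by hand from the 20 listed, and Sp6 and Dsp are the markers called lower. Since every epithelial marker tested had a negative log2 fold change, the division takes out a fall that Shh shares with them. The cause of that fall was not tested. For Epcam, an adhesion protein of epithelial cells, the ratio was 1.67, 1.57, 2.03 and 2.00 in controls 1 to 4 and 1.68, 1.35, 2.29 and 1.38 in Osr2-Cre;Ezh2fl/fl libraries 1 to 4. For Sp6 the means were 0.274 ± 0.0349 in control and 0.244 ± 0.0491 in Osr2-Cre;Ezh2fl/fl libraries, for Krt14 0.368 ± 0.111 and 0.280 ± 0.0448, for Cdh1 0.660 ± 0.107 and 0.567 ± 0.108, and for Dsp 0.427 ± 0.0393 and 0.432 ± 0.132 (SD, n = 4 each). The genes whose log2 values ran most like those of Shh over the 8 libraries were Exph5 (r = 0.99), Ripk4, Ap1m2, Spint1 and Herc3 (r = 0.98 each). In the gene annotation Shh lies at chr5:28456815-28467256 on the minus strand and is overlapped on the plus strand by 9530036O11Rik and by the long noncoding RNA Gm26894. Whether the counting used strand is not stated, so that reads of Shh and Gm26894 may not have been told apart. Gm26894, named after its values were seen, had values of 6.38 to 8.39 in control and 3.95 to 5.09 in Osr2-Cre;Ezh2fl/fl libraries (log2 fold change -0.56, limma adjusted p = 0.0356).

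Ihh, the Hedgehog ligand of growth plate cartilage, was close to absent. Its values were 0.191, 0.0805, 0.120 and 0.168 in control and 0.208, 0.0910, 0.184 and 0.142 in Osr2-Cre;Ezh2fl/fl libraries 1 to 4, which amount to an estimated 5 to 12 reads per library. The groups overlapped, and the fit without a filter gave a log2 fold change of 0.02 (SE 0.05, 95% interval -0.10 to 0.14, adjusted p = 0.933 from limma). A difference of this transcript was not detectable at this depth. The gene lies at chr1:74945315-74951672 on the minus strand and overlaps no other annotated gene.

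Ptch1, the receptor and a target of the pathway, had values of 991, 859, 816 and 698 in controls 1 to 4 and 873, 1138, 828 and 1023 in Osr2-Cre;Ezh2fl/fl libraries 1 to 4. The groups overlapped, with Osr2-Cre;Ezh2fl/fl libraries 2 and 4 above all controls. The means were 841 ± 121 and 966 ± 142 (SD, n = 4 each), and the log2 fold change was 0.20 (SE 0.14, 95% interval -0.11 to 0.50, adjusted p = 0.644 from limma). Ptch1 ran against the mean of the 19 epithelial markers, with a Pearson r of -0.93 over the 8 libraries (Spearman rho -1.0, r -0.88 without the 2 farthest libraries). With that mean as a covariate the log2 fold change was -0.03 (adjusted p = 0.916), and it was 0.11 without control library 4 and 0.12 without Osr2-Cre;Ezh2fl/fl library 2. The gene lies at chr13:63508328-63573598 on the minus strand.

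Smo, the transducer downstream of Ptch1, varied least of all members, with values of 209, 206, 199 and 196 in control and 207, 232, 210.3 and 218 in Osr2-Cre;Ezh2fl/fl libraries 1 to 4. Of the Osr2-Cre;Ezh2fl/fl libraries, 3 were above the highest control and library 1 was not. The means were 203 ± 5.86 and 217 ± 10.9 (SD, n = 4 each), and the log2 fold change was 0.09 (SE 0.06, 95% interval -0.05 to 0.23, adjusted p = 0.624 from limma). An effect beyond 0.23 in either direction lay outside this interval. Over the 8 libraries Smo ran opposite to Shh, with a Pearson r of -0.98 (Spearman rho -0.98, r -0.98 without the 2 farthest libraries), and had an r of -0.84 with the epithelial mean. The gene lies at chr6:29735503-29761365 on the plus strand.

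Hhip, a membrane protein that binds and sequesters Hedgehog ligands, had values of 81.8, 71.9, 78.9 and 66.5 in controls 1 to 4 and 82.0, 117, 84.3 and 107 in Osr2-Cre;Ezh2fl/fl libraries 1 to 4. All Osr2-Cre;Ezh2fl/fl values were above all control values, but library 1 only just (82.0 beside 81.8), and libraries 2 and 4 were well above the rest. The means were 74.8 ± 6.90 and 97.5 ± 17.1 (SD, n = 4 each), a ratio of 1.30. Its log2 fold change was 0.37 (SE 0.12, 95% interval 0.09 to 0.65, unadjusted p = 0.0149 and adjusted p = 0.215 from limma), and the exact permutation test gave p = 0.0286, the smallest that 4 against 4 libraries allow. With the epithelial mean as a covariate the log2 fold change was 0.22 (unadjusted p = 0.11), and with the Amelx, Ambn and Enam covariate 0.27 (unadjusted p = 0.049, adjusted p = 0.343). With the 5 libraries of lower Amelx level it was 0.39 (unadjusted p = 0.0506).

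Cartilage markers were highest in the same libraries as Hhip. Ptch1, Smo and Gli3 were highest in these libraries too, so the pattern is not particular to Hhip. Their summed value was 1899 in Osr2-Cre;Ezh2fl/fl library 2 and 1619 in library 4, 1196 and 1450.4 in libraries 1 and 3, and 1047 to 1306 in the controls. Of the 8 cartilage markers tested, 3 were called higher in Osr2-Cre;Ezh2fl/fl molars (Col2a1, Acan and Col9a1), where 1.56% of all genes were, and none lower, with Matn3, Col10a1 and Comp under a mean value of 1. The part of cartilage in the levels of these members was not tested. Hhip lies at chr8:79965851-80058006 on the minus strand.

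Sufu, a cytoplasmic inhibitor that retains the Gli proteins, had values of 45.2, 39.2, 40.0 and 39.3 in controls 1 to 4 and 36.8, 45.9, 34.3 and 43.5 in Osr2-Cre;Ezh2fl/fl libraries 1 to 4. The groups overlapped, and the Osr2-Cre;Ezh2fl/fl libraries reached both below and above the controls. The log2 fold change was -0.03 (SE 0.10, 95% interval -0.26 to 0.19, adjusted p = 0.947 from limma). The sign changed to 0.01 without control library 1, to 0.003 without Osr2-Cre;Ezh2fl/fl library 1 and to 0.04 without Osr2-Cre;Ezh2fl/fl library 3, so no direction is given for this gene. It lies at chr19:46396896-46488804 on the plus strand.

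Gli1, an activator and the usual readout of Hedgehog signaling, had the difference of smallest p among the members. It measured 149, 132, 139.6 and 129 in controls 1 to 4 and 168, 171, 192 and 156 in Osr2-Cre;Ezh2fl/fl libraries 1 to 4. All 4 Osr2-Cre;Ezh2fl/fl libraries were above all 4 controls, with a gap from 149 to 156. The means were 137 ± 8.83 and 172 ± 14.9 (SD, n = 4 each), a ratio of 1.25. On the log2 scale the fold change was 0.32 (SE 0.08, 95% interval 0.14 to 0.50, unadjusted p = 0.00284 and adjusted p = 0.0875 from limma), and the exact permutation test gave p = 0.0286, the smallest possible here. With any 1 library left out, the log2 fold change lay between 0.26 and 0.36, with adjusted p-values of 0.081 to 0.248, so that the gene did not pass in any of these fits.

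The relation of Gli1 to the epithelial markers ran in opposite directions in the groups. Its Pearson r with the epithelial mean was -0.68 within the 4 control and 0.80 within the 4 Osr2-Cre;Ezh2fl/fl libraries, and -0.48 over all 8 (Spearman rho -0.52, r -0.69 without the 2 farthest libraries), values that describe few points. With that mean as a covariate the log2 fold change was 0.32 (unadjusted p = 0.0091, adjusted p = 0.175), the same as without it. That fit gives both groups a common slope, and slopes of opposite sign can cancel in it. Whether the difference of Gli1 depends on the epithelial markers was therefore not tested. With the 5 libraries of lower Amelx level the log2 fold change of Gli1 was 0.23 (unadjusted p = 0.0435, adjusted p = 0.669). Within libraries, Gli1 divided by Shh was 0.931, 0.714, 0.581 and 0.569 in control and 1.04, 1.88, 1.27 and 1.22 in Osr2-Cre;Ezh2fl/fl libraries 1 to 4, without overlap, a ratio that carries the values of both genes already given. Gli1 divided by Ptch1, the other readout gene, was 0.165 ± 0.0164 in control and 0.182 ± 0.0385 in Osr2-Cre;Ezh2fl/fl libraries (SD, n = 4 each), and these groups overlapped.

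The genes whose log2 values ran most like those of Gli1 over the 8 libraries were Ccdc114 and Ovgp1 (r = 0.98 each), Ddx50, A230050P20Rik and Znrf1 (r = 0.97 each). Of these, A230050P20Rik was called, with means of 15.6 ± 1.39 in control and 23.4 ± 2.38 in Osr2-Cre;Ezh2fl/fl libraries (SD, n = 4 each, log2 fold change 0.56, limma adjusted p = 0.0207). Gli1 lies at chr10:127329882-127341974 on the minus strand, where Arhgap9 and Gm47200 overlap it on the plus strand. Arhgap9, named after its values were seen, had values of 1.51 to 1.86 in control and 2.09 to 3.15 in Osr2-Cre;Ezh2fl/fl libraries.

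Gli2, the main activator in response to the ligand in many tissues, had values of 23.5, 26.7, 29.1 and 33.3 in control and 31.7, 33.7, 31.7 and 28.2 in Osr2-Cre;Ezh2fl/fl libraries 1 to 4. The groups overlapped, since control library 4 was as high as the Osr2-Cre;Ezh2fl/fl libraries. The log2 fold change was 0.16 (SE 0.11, 95% interval -0.09 to 0.40, unadjusted p = 0.18 and adjusted p = 0.648 from limma). With the epithelial mean as a covariate it was 0.30 (unadjusted p = 0.0177, adjusted p = 0.23), and with the 5 libraries of lower Amelx level 0.30 (unadjusted p = 0.0372, adjusted p = 0.63). It was 0.08 without control library 1 (unadjusted p = 0.468) and 0.03 with array weights (unadjusted p = 0.677). The gene lies at chr1:118834132-119053619 on the minus strand.

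Gli3, which is cut to a repressor where the ligand is absent, had values of 101, 106, 99.2 and 105 in control and 109, 146, 111 and 119 in Osr2-Cre;Ezh2fl/fl libraries 1 to 4. All Osr2-Cre;Ezh2fl/fl libraries were above all controls, with library 2 far above the others. The means were 103 ± 3.10 and 121 ± 16.9 (SD, n = 4 each), a ratio of 1.18, and the log2 fold change was 0.23 (SE 0.09, 95% interval 0.02 to 0.43, unadjusted p = 0.0355 and adjusted p = 0.328 from limma). Without Osr2-Cre;Ezh2fl/fl library 2 the log2 fold change was 0.14 (unadjusted p = 0.0627), and with the epithelial mean as a covariate it was 0.17 (unadjusted p = 0.154). The exact permutation test gave p = 0.0286. The gene lies at chr13:15463235-15730026 on the plus strand, and Gm6556, a transcript on the opposite strand within it named after its values were seen, had values of 3.32 to 4.29 in control and 4.44 to 5.59 in Osr2-Cre;Ezh2fl/fl libraries.

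**Figure D2:**
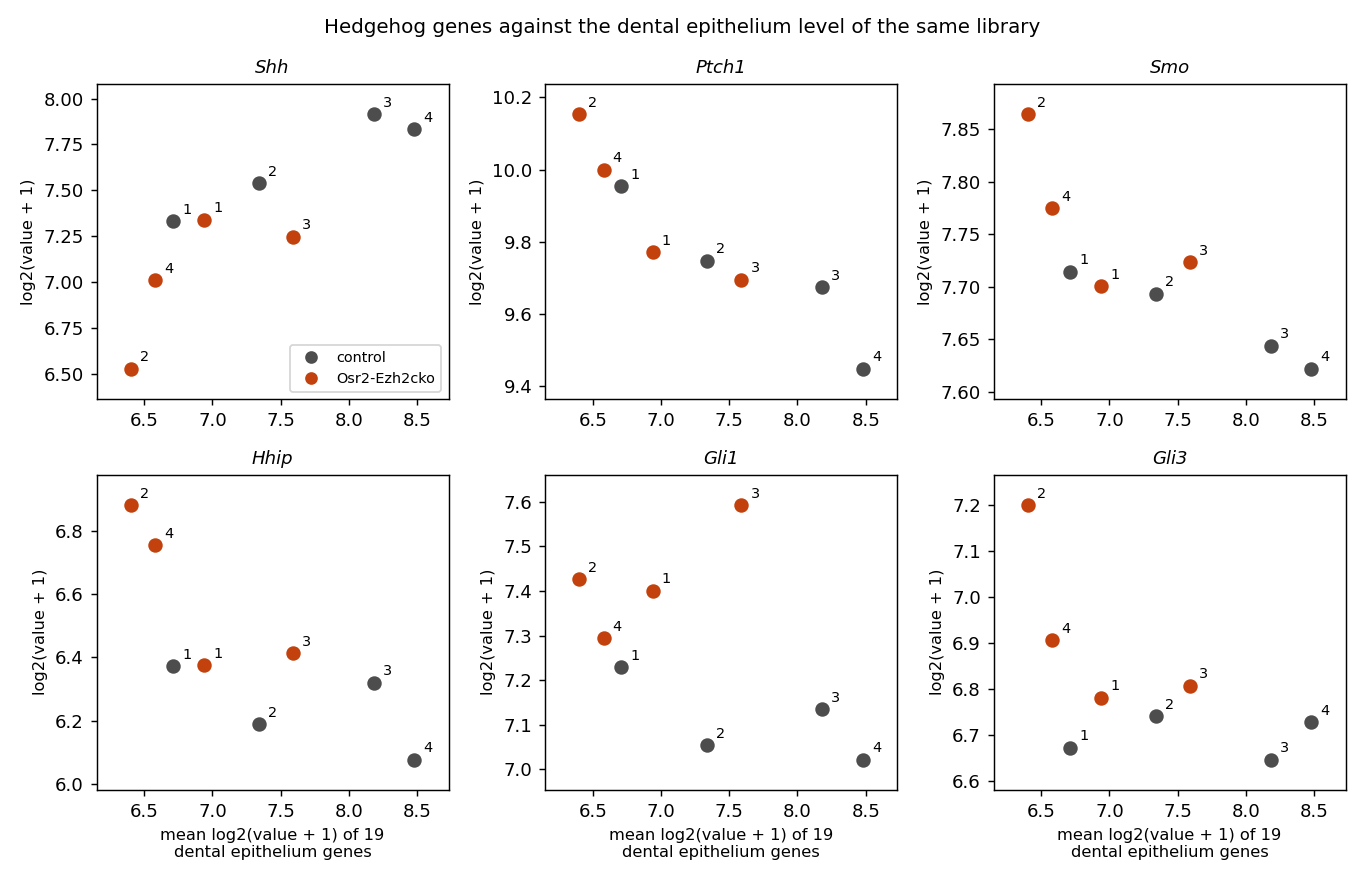
The log2(value + 1) of 6 Hedgehog genes (vertical axes) against the mean log2(value + 1) of 19 dental epithelium markers of the same library (horizontal axes), with 1 numbered point per library. Shh climbs with this marker mean (r = 0.86) and Ptch1 descends with it (r = -0.93), while the Osr2-Cre;Ezh2fl/fl points of Gli1 all lie above the control points. No Osr2-Cre;Ezh2fl/fl library reached the marker mean of controls 3 and 4 (8.18 and 8.48, beside at most 7.59).

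With the epithelial mean in the fit, the genotype differences of the members changed unequally. Shh, Ptch1, Smo, Hhip and Gli3 came closer to 0, at log2 fold changes of -0.32, -0.03, 0.04, 0.22 and 0.17. Gli1 stayed at 0.32, in a fit with a common slope for both groups, and Gli2 moved away from 0, to 0.30, while Sufu was at -0.17 and Ihh at 0.04. At an unadjusted p under 0.05, Gli1 and Gli2 were the 2 members that passed in this fit, where 14.3% of all genes did, and the same 2 passed with the 5 libraries of lower Amelx level, where 7.08% did. With the Amelx, Ambn and Enam covariate, 4 members passed (Shh, Gli1, Gli2 and Hhip), where 14.4% of all genes did. At an adjusted p, 0 members passed with the epithelial mean or with the 5 libraries, beside 1.6% and 0.0539% of all genes. The 1 alternative in which members were called, array weights, put most of its weight on Osr2-Cre;Ezh2fl/fl library 4 and called Shh, Ptch1, Gli1, Gli3 and Hhip in a fit that called 27.2% of all genes.

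**Figure D3:**
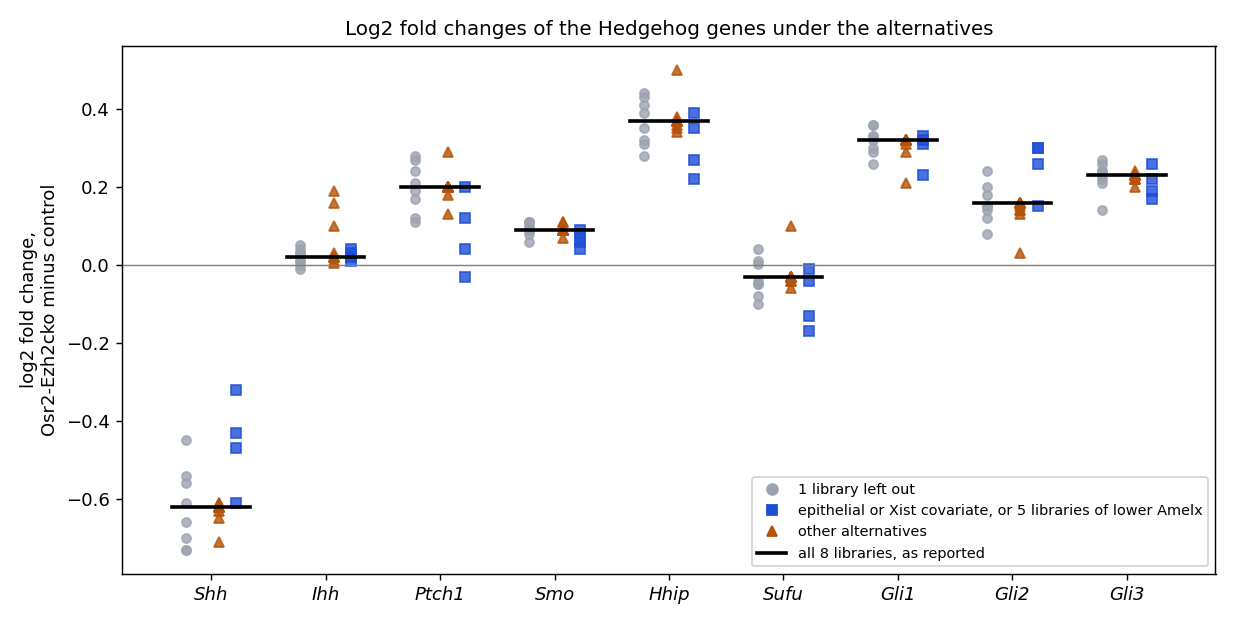
Log2 fold change (Osr2-Cre;Ezh2fl/fl minus control, vertical axis) of each Hedgehog gene in all fits: 1 library left out, fits with an epithelial or Xist covariate or only the 5 libraries of lower Amelx level, the other alternatives, and a black bar for all 8 libraries. Shh stays between -0.73 and -0.32 and Gli1 between 0.21 and 0.36, while Ihh, Ptch1 and Sufu lie on both sides of 0.

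Beyond the 9 members, 77 further genes of the pathway were listed by role, of which 75 were in the table and 71 passed the filter. At an adjusted p under 0.05, 2 of the 71 were called, both higher in Osr2-Cre;Ezh2fl/fl molars, where 1.56% of all genes were called in this direction. At an unadjusted p under 0.05, 9 were higher and 3 lower, where 8.27% and 4.87% of all genes were. The median log2 fold change of the 71 was 0.04, beside 0.01 for all genes tested.

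Both called genes are on the list of genes described as Hedgehog targets, where 19 of 21 were tested, 2 were called higher (1.56% of all genes were), and the median log2 fold change was 0.13, beside 0.01 over all genes. At an unadjusted p under 0.05, 6 were higher and 2 lower, beside 8.27% and 4.87% of all genes. Bmi1, which encodes a subunit of Polycomb repressive complex 1, had values of 50.7, 48.6, 52.7 and 47.5 in controls 1 to 4. In Osr2-Cre;Ezh2fl/fl libraries 1 to 4 they were 95.1, 108, 98.9 and 111, all far above the controls. The log2 fold change was 1.03 (SE 0.07, 95% interval 0.88 to 1.19, adjusted p = 0.00032 from limma), and Bmi1 was the single pathway gene called in every alternative with a test (highest adjusted p = 0.0497). It lies at chr2:18677018-18686629, and Commd3, which ends 786 bases before it on the same strand, had values of 71.7 to 75.2 in control and 78.2 to 102 in Osr2-Cre;Ezh2fl/fl libraries (adjusted p = 0.138).

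Foxc1, a forkhead transcription factor of mesenchyme, lies at chr13:31806633-31812476 and had values of 4.19, 4.57, 3.89 and 4.40 in control and 6.54, 5.99, 7.82 and 7.02 in Osr2-Cre;Ezh2fl/fl libraries 1 to 4. All Osr2-Cre;Ezh2fl/fl values were above all control values, with a log2 fold change of 0.57 (SE 0.10, 95% interval 0.35 to 0.80, adjusted p = 0.0202 from limma). The call was lost when control library 1, 2, 3 or 4 or Osr2-Cre;Ezh2fl/fl library 4 was left out, with adjusted p-values of 0.0521, 0.058, 0.094, 0.0574 and 0.0726 and log2 fold changes of 0.57, 0.60, 0.54, 0.59 and 0.56. It was lost too with the 5 libraries of lower Amelx level (log2 fold change 0.48, adjusted p = 0.344). With the replicate number as a block in limma, the log2 fold change was 0.57 and the call was also lost (adjusted p = 0.156). Among the other targets, Fst, Sfrp1, Foxf2 and Cntfr had log2 fold changes of 0.53, 0.51, 0.47 and 0.47 with adjusted p-values of 0.0615 to 0.327. These 4 names were picked once their values were known. The lowest log2 fold changes among the genes of the list tested were those of Jag2 (-0.32), a Notch ligand, and Mycn (-0.26), neither of which passed (adjusted p = 0.212 and 0.32). With the epithelial mean as a covariate Jag2 was at -0.16 and Mycn at -0.20. The cell cycle gene Ccnd1, often used as a Hedgehog target, had means of 395 ± 24.6 and 404 ± 97.3 (SD, n = 4 each), and Bmp4 had means of 53.2 ± 8.84 and 49.6 ± 7.58.

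Of the 13 tested genes of ligand production, release and reception, 0 were called, 3 were higher at an unadjusted p under 0.05, where 8.27% of all genes were, and 11 had a positive log2 fold change, as 54.1% of all genes did. The highest were Hhipl1 (0.49, adjusted p = 0.17), a relative of Hhip, and the glypican Gpc6 (0.44, adjusted p = 0.215). The other of these 3 was Gpc3, a glypican that competes with Ptch1 for ligand, named after its values were seen. It had values of 332 to 342 in control and 371 to 512 in Osr2-Cre;Ezh2fl/fl libraries, without overlap (log2 fold change 0.40, adjusted p = 0.0758). The ligand-release genes Disp1 and Scube3 were lowest, at -0.14 and -0.06. The coreceptors Cdon, Boc and Gas1 had log2 fold changes of 0.21, 0.05 and 0.35, none past the test.

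The 24 genes between Smo and Gli had a median log2 fold change of 0.00, with 0 called, 12 positive and 12 negative, beside 2.07% called and 54.1% positive of all genes. Spopl and Evc2 were highest, at 0.13 each, and Arrb1 and Gsk3b lowest, at -0.27 and -0.22. Spopl was 0.01 without Osr2-Cre;Ezh2fl/fl library 3. Arrb1 was -0.16 without control library 1 or Osr2-Cre;Ezh2fl/fl library 1 or 3, -0.57 with the epithelial mean as a covariate and -0.04 with array weights. Gsk3b, one of the kinases that mark the Gli proteins for cutting, was the 1 gene of this list at an unadjusted p under 0.05, which 4.87% of all genes reached in this direction (limma adjusted p = 0.229). Its means were 137 ± 7.91 and 117 ± 9.66 (SD, n = 4 each). Kif7, a kinesin of the cilium that takes part in the pathway, had means of 55.5 ± 4.56 and 54.5 ± 4.00. The 16 genes of primary cilium transport held 0 calls, where 2.07% of all genes were called, and 0 at an unadjusted p under 0.05, where 13.1% were, with a median log2 fold change of -0.05 and a range from -0.15 (Ift122) to 0.15 (Intu and Mks1). The signs of Ift122, Ift172 and Intu changed with the processing.

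**Figure D4:**
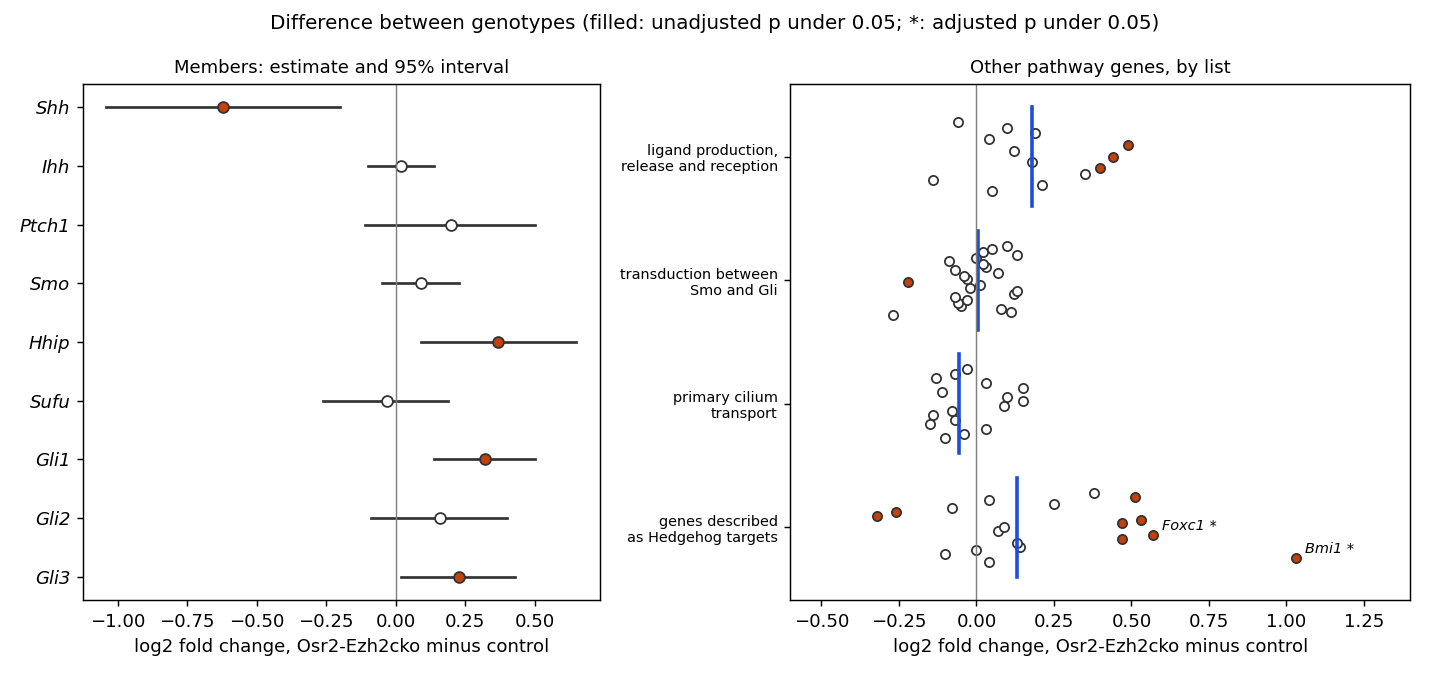
Log2 fold changes (Osr2-Cre;Ezh2fl/fl minus control, horizontal axes) of the 9 members with 95% intervals, on the left, and of the 71 other pathway genes tested by list, on the right, where each point is a gene and the blue bar is the list's median. Filled points have an unadjusted p under 0.05, and the 2 starred genes, Foxc1 at 0.57 and Bmi1 at 1.03, have an adjusted p under 0.05.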

How the data were processed

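RNA-seq values of 8 libraries were used, 4 control and 4 Osr2-Cre;Ezh2fl/fl, grouped by the sample labels. By the study's methods the authors trimmed single-end reads of 75 cycles, aligned them to mm10 with TopHat and normalized by RPKM; the submitters' processing notes also name CASAVA 1.8.2, Partek and STAR 2.5.3a. The deposited values are a normalized signal with no length factor, treated here neither as RPKM nor as counts: no value is 0, and 62.5% of the low values (under 20 times the smallest of their library) are whole multiples of that smallest value within 0.02. Estimated reads are the value divided by that smallest value, minus 1, and carry counting error only.

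Log2(value + 1) was fitted with limma 3.58.1 in R 4.3.3 (mean-variance trend, group as the only term) over the 14854 genes whose values reached 1 in 4 or more libraries, with Benjamini-Hochberg adjustment over all of them. The fit was tested on simulated data. Single genes were tested by two-sided exact permutation over the 70 arrangements of the libraries. Correlations over libraries and motif matches are descriptions. Exon lengths and coordinates are from GENCODE mouse release 21 (GRCm38, the build of mm10) and promoters from RefSeq, read with Python 3.11.15 and pandas 2.3.3.

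The members and the gene lists were chosen with earlier results of these data known. The genes named are the members, Ezh2, called pathway genes, the 2 highest and 2 lowest log2 fold changes of each pathway list, the 3 most abundant markers of each marker list and the 5 genes most like Gli1 and most like Shh. Genes named beyond that are so marked in the text, or are list members given as examples. Alternatives were pseudocounts of 0.1 and 5, no filter and a filter at 10, median-of-ratios and quantile scaling, limma without trend, with array weights and as voom on the estimated reads, a replicate block, covariates, and each library left out.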

Additional observations from a re-analysis of the deposited data

Results flagged for a closer look

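The levels of each member, of Ezh2 and of the other pathway genes were searched within each group of 4 libraries for 1 library far from the other 3. Of 162 groups, 7 held one, where about 1 in 20, or 8.10 groups, would by chance. Among the members this was Sufu in control library 1, at 45.2 beside 39.2 to 40.0 in the other controls. Ezh2 was high in the same library, at 55.0 beside 38.3 to 39.6, and Scube2, a ligand-release gene, was low there, at 0.730 beside 1.26 to 1.33. In Osr2-Cre;Ezh2fl/fl library 3, Intu, a planar polarity gene of the cilium, was at 13.7 beside 7.66 to 8.13, and the arrestin Arrb2 was at 15.6 beside 21.6 to 22.1. Ofd1, a protein of the ciliary base, was at 31.2 in control library 2 beside 29.1 to 29.2. Ccne1, a cyclin, was at 10 in control library 4 beside 11.4 to 11.6.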

How the results depend on the processing

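The count of members called at an adjusted p stayed at 0 in 21 of 22 alternatives. With array weights (9.66 for Osr2-Cre;Ezh2fl/fl library 4, at most 2.31 for any other), the count was 5 (Shh, Ptch1, Gli1, Gli3 and Hhip) in a fit that called 27.2% of all genes, with log2 fold changes of -0.71 for Shh, 0.29 for Ptch1, 0.21 for Gli1, 0.22 for Gli3, 0.50 for Hhip and 0.10 for Sufu (-0.03 without weights). The same fit called 27 other pathway genes (32 at an unadjusted p), and it gave 0.03 for Ift122, 0.01 for Ift172 and -0.06 for Intu, each of the opposite sign. The count of members at an unadjusted p was 4, ranged from 3 to 4 with 1 library left out, and was 6 with array weights. It was 2 with the epithelial marker covariate or with the 5 libraries of lower Amelx level, both chosen after the data were seen. Ptch1 was -0.03 with that covariate. Leaving out 1 library moved Ihh between -0.01 and 0.05 (-0.001 without Osr2-Cre;Ezh2fl/fl library 1), Sufu between -0.10 and 0.04, Intu down to -0.03 without Osr2-Cre;Ezh2fl/fl library 3, and the other pathway genes called between 1 and 3. A filter at 10 removed Foxc1, whose highest value was 7.82, before the test and left 1 of these genes called, Bmi1. The 5 libraries left Bmi1 alone as well. At an unadjusted p the count of other pathway genes was 19 with the Amelx, Ambn and Enam covariate and 6 with the 5 libraries. Ihh, at a few reads per library, was 0.16 as a log2 ratio of group means. Apart from the filter at 10, the cause of these changes was not tested.

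The study's methods give 4 samples per group and also speak of 3 pairs, without saying which libraries these were. The replicate numbers did not pair the libraries: taken over genes, the departures of libraries 1, 2, 3 and 4 from the mean of their group correlated between the groups at r = -0.342, -0.0769, 0.215 and -0.434, and 1 of 8 libraries correlated best with its own number. With the replicate number as a block, 0 members were called at an adjusted p and 4 at an unadjusted p (Gli1 adjusted p = 0.231, Shh 0.22), and the other pathway genes called went from 2 to 1, Bmi1, with Foxc1 at an adjusted p of 0.156.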

Other observations

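Of the pathway genes listed, 4 were in the table but under the filter. Dhh, the ligand of peripheral nerve and gonad, had values of 0.189 to 0.539 in control and 0.245 to 0.481 in Osr2-Cre;Ezh2fl/fl libraries, an estimated 10 to 33 reads. Foxl1, a forkhead gene described as a Hedgehog target, had values of 0.948 to 1.06 in control libraries and of 0.607, 0.500, 0.523 and 0.981 in Osr2-Cre;Ezh2fl/fl libraries 1 to 4. In the fit without a filter its log2 fold change was -0.28 (limma, unadjusted p = 0.0134, adjusted p = 0.218), opposite in sign to its relatives Foxc1 and Foxf2. Foxd1 and Hhipl2 had overlapping groups, with means of 0.337 ± 0.250 and 0.602 ± 0.338 and of 0.341 ± 0.0899 and 0.401 ± 0.112 (SD, n = 4 each).

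The cilium gene Rab23, a small GTPase that holds the pathway back, was chosen after its values were seen. Its values were 43.8 to 48.5 in control and 39.2 to 43.6 in Osr2-Cre;Ezh2fl/fl libraries, so that the groups did not overlap, as was so for 2.77% of all genes in this direction. The log2 fold change was -0.13 (limma, unadjusted p = 0.071, adjusted p = 0.448).

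Endothelial markers had a negative log2 fold change in all 6 genes tested, with a median of -0.18, 0 called and 3 at an unadjusted p under 0.05, which 4.87% of all genes reached in this direction. Their summed value was 337 to 384 in control and 301 to 332 in Osr2-Cre;Ezh2fl/fl libraries. Of the 8 bone markers tested, 4 had a positive and 4 a negative log2 fold change, with a median of -0.16. At an unadjusted p under 0.05, 2 of them were higher and 1 lower, beside 8.27% and 4.87% of all genes. Of these, 1 was called higher (Ibsp), where 1.56% of all genes were, with means of 114 ± 24.3 and 416 ± 70.5 (SD, n = 4 each). Of the dental mesenchyme markers, 1 of 17 was called higher, where 1.56% of all genes were. At an unadjusted p under 0.05, 5 of the 17 were higher and 1 lower, beside 8.27% and 4.87% of all genes. Schwann cell, macrophage and blood, skeletal muscle and sex-linked lists held 0 calls, with 3, 6, 3 and 5 genes tested and 2.07% of all genes called.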
